A study of Homo sapiens with 346 samples.

Results

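The genes described here are 10 that cells use against unfolded protein in the endoplasmic reticulum (ER) and against a shortage of amino acids: ATF4, DDIT3, HSPA5, HERPUD1, ASNS, CHAC1, TRIB3, PPP1R15A, DDIT4 and SESN2. They were chosen by name, and all 10 are listed in both gene tables, which together list 31463 genes. Single cells of HCT-116, a human colorectal carcinoma line, and of a line labelled HepG2, known as a human liver carcinoma line, were sequenced with Smart-seq2, either live or after methanol fixation. Live cells were sorted unfixed, and fixed cells had been held in 80% methanol at -80 °C for 1 week; all cells grew in the same serum-supplemented medium, and no other treatment is named. Of HCT-116, 91 live and 92 fixed cells had values; of HepG2, 68 live and 83 fixed cells did. HCT-116 was done once and HepG2 in separate experiments, which no label tells apart. A treatment of a line thus counts as 1 sample, SDs are over cells, no p-value was computed, and no difference below has a replicate check. Fixed cells were sorted and made into libraries after that week, and only live cells were stained with propidium iodide, so fixation, storage, staining and library batch cannot be told apart.

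The unfolded protein response and the amino acid response meet at the initiation factor eIF2. Kinases that sense unfolded protein (PERK) or uncharged tRNA (GCN2) phosphorylate eIF2, which slows most translation but favours that of ATF4, a transcription factor that switches on genes of amino acid uptake and synthesis, tRNA charging and feedback. In parallel, ATF6 and XBP1 switch on ER chaperones and the machinery that returns misfolded protein to the cytosol for degradation. ATF4 and XBP1 are controlled largely after transcription, so mRNA levels give only part of their activity.

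Promoters are shown for the members whose start region held a response element, since the results below turn on how ATF4 varied with ASNS and CHAC1, and HSPA5 with HERPUD1. Windows ran from 250 bases before to 50 bases after the annotated start (RefSeq, GRCh38.p14; 15 windows for the 10 genes, of which the first listed is shown) and were searched on both strands. The C/EBP-ATF element TGATGNAAN, bound by ATF4 with a partner, was found for 3 of 10 members (HERPUD1, ASNS and CHAC1), against 4.45% of 27305 genes with a window. The ER stress element, CCAAT and CCACG with 9 bases between them, was found for HSPA5, against 0.0916% of genes. TGACGTG was found for none of the 10 and for 2.40% of genes. No 2 matches overlapped. Matched letters are in capitals, and each sequence reads 5′ to 3′ on the strand of its gene.
HSPA5 promoter (chr9:125241294-125241593, minus strand): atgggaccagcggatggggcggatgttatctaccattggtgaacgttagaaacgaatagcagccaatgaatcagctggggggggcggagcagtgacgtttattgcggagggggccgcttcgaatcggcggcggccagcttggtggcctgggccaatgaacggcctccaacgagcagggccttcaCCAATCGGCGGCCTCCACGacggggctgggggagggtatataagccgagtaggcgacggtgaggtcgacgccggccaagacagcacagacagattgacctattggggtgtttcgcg
HERPUD1 promoter (chr16:56931892-56932191, plus strand): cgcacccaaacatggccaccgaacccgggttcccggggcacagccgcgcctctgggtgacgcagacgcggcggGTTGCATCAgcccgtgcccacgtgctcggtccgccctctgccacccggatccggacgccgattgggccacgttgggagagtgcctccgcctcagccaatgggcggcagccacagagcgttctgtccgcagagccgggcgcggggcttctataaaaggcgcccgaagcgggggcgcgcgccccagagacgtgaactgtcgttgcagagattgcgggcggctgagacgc
ASNS promoter (chr7:97872359-97872658, minus strand): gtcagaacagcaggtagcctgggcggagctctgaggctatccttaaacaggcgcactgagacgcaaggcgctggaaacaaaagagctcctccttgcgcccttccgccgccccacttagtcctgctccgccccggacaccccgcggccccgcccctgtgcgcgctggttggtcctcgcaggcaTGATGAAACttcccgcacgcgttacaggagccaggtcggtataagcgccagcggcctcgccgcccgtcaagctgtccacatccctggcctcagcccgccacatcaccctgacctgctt
CHAC1 promoter (chr15:40953221-40953520, plus strand): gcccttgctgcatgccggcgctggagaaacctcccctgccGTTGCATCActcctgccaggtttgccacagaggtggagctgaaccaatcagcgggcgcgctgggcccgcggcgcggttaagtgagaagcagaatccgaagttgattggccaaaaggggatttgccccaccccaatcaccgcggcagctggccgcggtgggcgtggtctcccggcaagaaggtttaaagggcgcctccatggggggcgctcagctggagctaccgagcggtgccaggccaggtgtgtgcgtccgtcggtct
The element of HSPA5 began 66 bases before the start and that of ASNS 68 bases before it. Those of HERPUD1 and CHAC1 lay farther out, the latter 210 bases before the start, and both read GTTGCATCA, the element on the opposite strand. A match is a description of letters and does not show binding. Only these exact letters were searched, so other forms of the elements in the windows would be missed. The other 6 members had no match in their windows, which says nothing of elements elsewhere.

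Cells had a median of 1.8 to 2.5 M reads by group, from 0.2 M in a fixed HCT-116 cell to 5.3 M in a live one. The depth of each cell was recovered to 0.1 M. Fixed cells had fewer genes above 0 TPM in general, a median of 10359 against 12031 in live HCT-116 cells and 12293 against 13887 in live HepG2 cells. Lower shares of cells with a member after fixation are to be read beside this. Ribosomal RNA took a median of 24.6% of TPM (a level per length of transcript, scaled to the same total in each cell) in live HCT-116 cells and 7.60% in fixed ones, and 5.72% and 2.39% in HepG2 cells. One column of values was listed both as a live and as a fixed HepG2 cell, and 6 fixed HepG2 columns were nearly alike (r above 0.95). Of 17 hepatocyte markers, 10 had values in the HepG2 samples, and 0 of these were above 1 TPM in 50% or more of cells. Their summed level had a median of 0.473 TPM in live cells (range 0 to 36.1) and 0.273 TPM in fixed cells (range 0 to 89.7). Markers without values could not be judged. In contrast, 9 of 10 luminal breast markers passed this cut-off in the HepG2 samples, ESR1, GATA3 and TFF1 among them. Their summed median was 21843 TPM in live cells against 17619 TPM in fixed ones. KRT8, KRT18, KRT19 and XBP1 of this list passed it in HCT-116 too, where the list had a summed median of 3922 TPM (live) and 2910 TPM (fixed). Of 10 intestinal markers, 5 had values in HCT-116, and 2 of these (CDX2 and EPCAM) passed the cut-off. EPCAM passed it in the HepG2 samples too. Of 6 blood cell markers, 3 had values in HCT-116 and 5 in HepG2, and 0 passed it in any group. The label HepG2 is kept below only as the name of the samples.

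Fixed and live cells were compared first, by the log2 ratio of mean TPM. Among genes with a mean of at least 1 TPM, the median log2 ratio was 0.17 in HCT-116 (11813 genes) and 0.15 in HepG2 (12486 genes). It became -0.16 and -0.04 with ribosomal RNA left out, so small ratios take their sign from the scaling. In HCT-116, 1 member was lower in fixed cells by 2-fold or more (PPP1R15A; 8.84% of all genes were) and 1 was higher (DDIT3; 2.99% of all genes). In HepG2, 1 was lower (PPP1R15A; 9.76% of all genes) and 1 was higher (DDIT4; 4.89% of all genes). PPP1R15A was thus past 2-fold in both lines, and all 10 members passed the filter on low values in both. The median of the 10 log2 ratios was 0.06 in HCT-116 and -0.20 in HepG2. With the column under both treatments left out, PPP1R15A was at -3.50 and DDIT4 at 1.43 in HepG2, and without the 6 similar columns at -3.42 and 1.49.

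**Figure D1:**
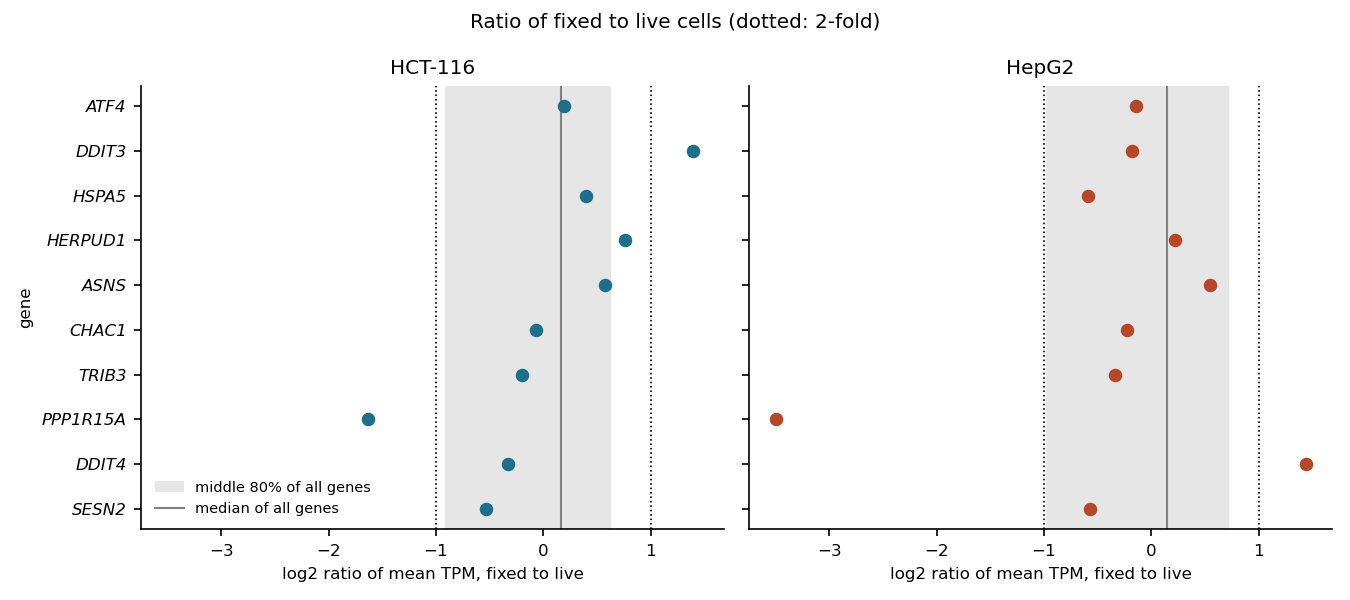
Log2 ratio of mean TPM of fixed to live cells for each of the 10 genes (points) in HCT-116 (left) and HepG2 (right); the grey band holds the middle 80% of all genes, the grey line marks their median and dotted lines mark 2-fold. PPP1R15A lies farthest to the left in both lines, at -1.64 and -3.50, and DDIT3 in HCT-116 and DDIT4 in HepG2 lie beyond 2-fold on the right.

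PPP1R15A (GADD34; chr19:48872421-48876058) recruits the phosphatase that removes the phosphate from eIF2 and so ends the translation block. In HCT-116 its mean was 25.6 ± 17.1 TPM in live cells (SD, n = 91 cells) and 8.25 ± 9.77 TPM in fixed cells (n = 92 cells), a log2 ratio of -1.64. Live HCT-116 cells ranged from 5.33 to 83.5 TPM with a median of 19.6, and fixed cells from 0 to 52.7 TPM with a median of 6.44. The groups overlapped, but 84 of 92 fixed cells were below the live median and 41 were below the lowest live cell. In HepG2 the mean was 42.6 ± 28.1 TPM in live cells against 3.77 ± 5.96 TPM in fixed ones, an 11.3-fold difference. Live HepG2 cells ranged from 0 to 126.7 TPM (median 37.7) and fixed cells from 0 to 32.4 TPM (median 0.963), with all 83 fixed cells below the live median. PPP1R15A was above 0 TPM in 100% of live HCT-116 cells (exact 95% interval 96.03 to 100%) and in 69.6% of fixed cells (59.1 to 78.7%). The shares in HepG2 were 97.1% (89.8 to 99.6%) and 55.4% (44.1 to 66.3%). These intervals cover counting error only. With reads thinned to 500000 per cell live and fixed shares were 100% against 67.4% for HCT-116 and 95.6% against 50.6% for HepG2, so that the gap was as wide at this depth. In cells paired on total reads they were 100% and 65.1% in HCT-116 (63 pairs) and 95.7% and 69.6% in HepG2 (46 pairs). The gap in HepG2 was thus narrower in paired cells than over all cells.

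ATF4 (chr22:39520559-39522686), the transcription factor at the centre of the response, was the member with the highest median in live and fixed HCT-116 cells. It was found in every HCT-116 cell, from 16.1 to 852 TPM with a median of 313 in live cells and from 65.1 to 1062 TPM with a median of 381 in fixed cells. In HepG2 it ranged from 10.6 to 305 TPM with a median of 93.9 in live cells and from 0 to 581 TPM with a median of 80.8 in fixed cells. Live and fixed cells overlapped almost fully in both lines. Its log2 ratio of means, 0.19 for HCT-116 and -0.14 for HepG2, was small, and the former became -0.12 with ribosomal RNA left out. DDIT3 (CHOP; chr12:57516588-57520517), a partner of C/EBP factors that is linked to cell death under lasting ER stress, was uneven between cells. In live HCT-116 it ran from 0 to 751 TPM with a median of 16.8, and in fixed HCT-116 from 0 to 1713 TPM with a median of 39.6. The top 10% of cells held 64.5% of its summed TPM in live HCT-116 and 60.8% in fixed, against 22.6% and 21.02% for ATF4. The mean of DDIT3 was 50.2 ± 117.9 TPM in live HCT-116 cells and 131.8 ± 266 TPM in fixed ones, a log2 ratio of 1.39 with SDs above both means. In HepG2 the mean was 13.4 ± 14.5 TPM in live cells and 11.9 ± 18.4 TPM in fixed cells, and the share of cells above 0 TPM was 86.8% (76.4 to 93.8%) and 77.1% (66.6 to 85.6%).

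HSPA5 (BiP; chr9:125234853-125241343) is the major chaperone of the ER, and HERPUD1 (chr16:56932142-56944864) helps to assemble the complex that degrades ER proteins. HSPA5 was found in every cell of all groups. Its median was 174.9 TPM in live HCT-116 (78.3 to 2368) and 259 TPM in fixed HCT-116 (69.6 to 1881), and 21 of 92 fixed cells were below the live median. In HepG2 the order was turned around, with a median of 134.4 TPM in live cells (14.3 to 512) and 97.0 TPM in fixed cells (14.3 to 250.3), and 63 of 83 fixed cells were below the live median. The log2 ratios of means, 0.40 and -0.59, had opposite signs, though ribosomal RNA left out brought the HCT-116 value to 0.06. HERPUD1 had a mean of 60.3 ± 99.04 TPM in live HCT-116 cells and 102.4 ± 162.9 TPM in fixed ones, a log2 ratio of 0.76 that was higher than that of 94.03% of all genes. In HepG2 its mean was 18.9 ± 13.8 TPM in live cells against 22.1 ± 22.2 TPM in fixed ones, and the medians, 16.1 and 16.9 TPM, were nearly equal.

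ASNS (chr7:97851677-97928441), which makes asparagine, was higher in fixed cells of both lines, though by less than 2-fold. Its mean was 132.7 ± 144.8 TPM in live HCT-116 cells and 198 ± 177.97 TPM in fixed ones, and 32.96 ± 31.2 and 48.2 ± 43.8 TPM in HepG2. The log2 ratios, 0.57 and 0.55, stayed above 0 under all alternatives, from 0.25 to 0.75 in HCT-116 and from 0.39 to 0.58 in HepG2. Most fixed cells were above the live median (29 of 92 below it in HCT-116, 28 of 83 in HepG2), but the ranges overlapped. CHAC1 (chr15:40953471-40956512), which degrades glutathione, was found in the fewest cells of each group, together with SESN2 in fixed HCT-116 (47 cells each). It was above 0 TPM in 51.6% of live (40.9 to 62.3%) and 51.1% of fixed (40.4 to 61.7%) HCT-116 cells. In HepG2 the share was 41.2% of live (29.4 to 53.8%) and 34.9% of fixed cells (24.8 to 46.2%), and the medians were 0. Its highest cells reached 117.9 and 128.7 TPM in HCT-116 and 22.03 and 33.4 TPM in HepG2 (live and fixed).

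TRIB3 (chr20:380760-397559), a pseudokinase that ATF4 induces and that restrains it, had a mean of 38.7 ± 67.1 TPM in live HCT-116 cells and 33.6 ± 50.7 TPM in fixed ones. Its means in HepG2 were 16.3 ± 13.9 and 12.9 ± 12.2 TPM. The log2 ratios, -0.20 and -0.34, were small, but more fixed cells had no TRIB3: 16 of 92 fixed and 6 of 91 live HCT-116 cells, and 15 of 83 fixed and 5 of 68 live HepG2 cells, were at 0 TPM. Thinned to the same depth, TRIB3 was found in 90.1% of live and 78.7% of fixed HCT-116 cells and in 91.2% and 78.3% of HepG2 cells. Fixed cells had fewer genes detected in general, and the part of this was not tested.

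DDIT4 (REDD1; chr10:72273924-72276036) and SESN2 (chr1:28259518-28282491) restrain the growth kinase mTORC1. DDIT4 ran over the widest range of TPM in live HCT-116, from 0 to 4766 TPM with a mean of 265 ± 609 and a median of 67.3. In fixed HCT-116 it ran from 0 to 1423 TPM with a mean of 211 ± 305 and a median of 76.96, so that the mean was lower and the median higher than in live cells. Its log2 ratio in HCT-116, -0.33, became 0.05 when the highest and lowest 5% of cells were left out and thus has no fixed sign. In HepG2 its mean was 17.2 ± 25.2 TPM in live cells against 46.6 ± 91.6 TPM in fixed ones, a log2 ratio of 1.44. Fixed HepG2 cells reached 587 TPM, and 10 of 83 were above the highest live cell (91.5 TPM), while 30 were below the live median of 6.47 TPM. SESN2 was low throughout, with medians of 4.15 TPM (live) and 0.350 TPM (fixed) in HCT-116 and of 5.26 and 2.46 TPM in HepG2. It was above 0 TPM in 70.3% of live (59.8 to 79.5%) and 51.1% of fixed (40.4 to 61.7%) HCT-116 cells, and in 89.7% (79.9 to 95.8%) and 69.9% (58.8 to 79.5%) of HepG2 cells. The log2 ratio of its means was -0.53 and -0.57, and it stayed below 0 in both lines under all alternatives. In cells paired on total reads SESN2 was found in 73.02% of live against 55.6% of fixed HCT-116 cells, and in 91.3% against 69.6% of HepG2 cells. The general drop in genes detected in fixed cells was not separated from this.

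**Figure D2:**
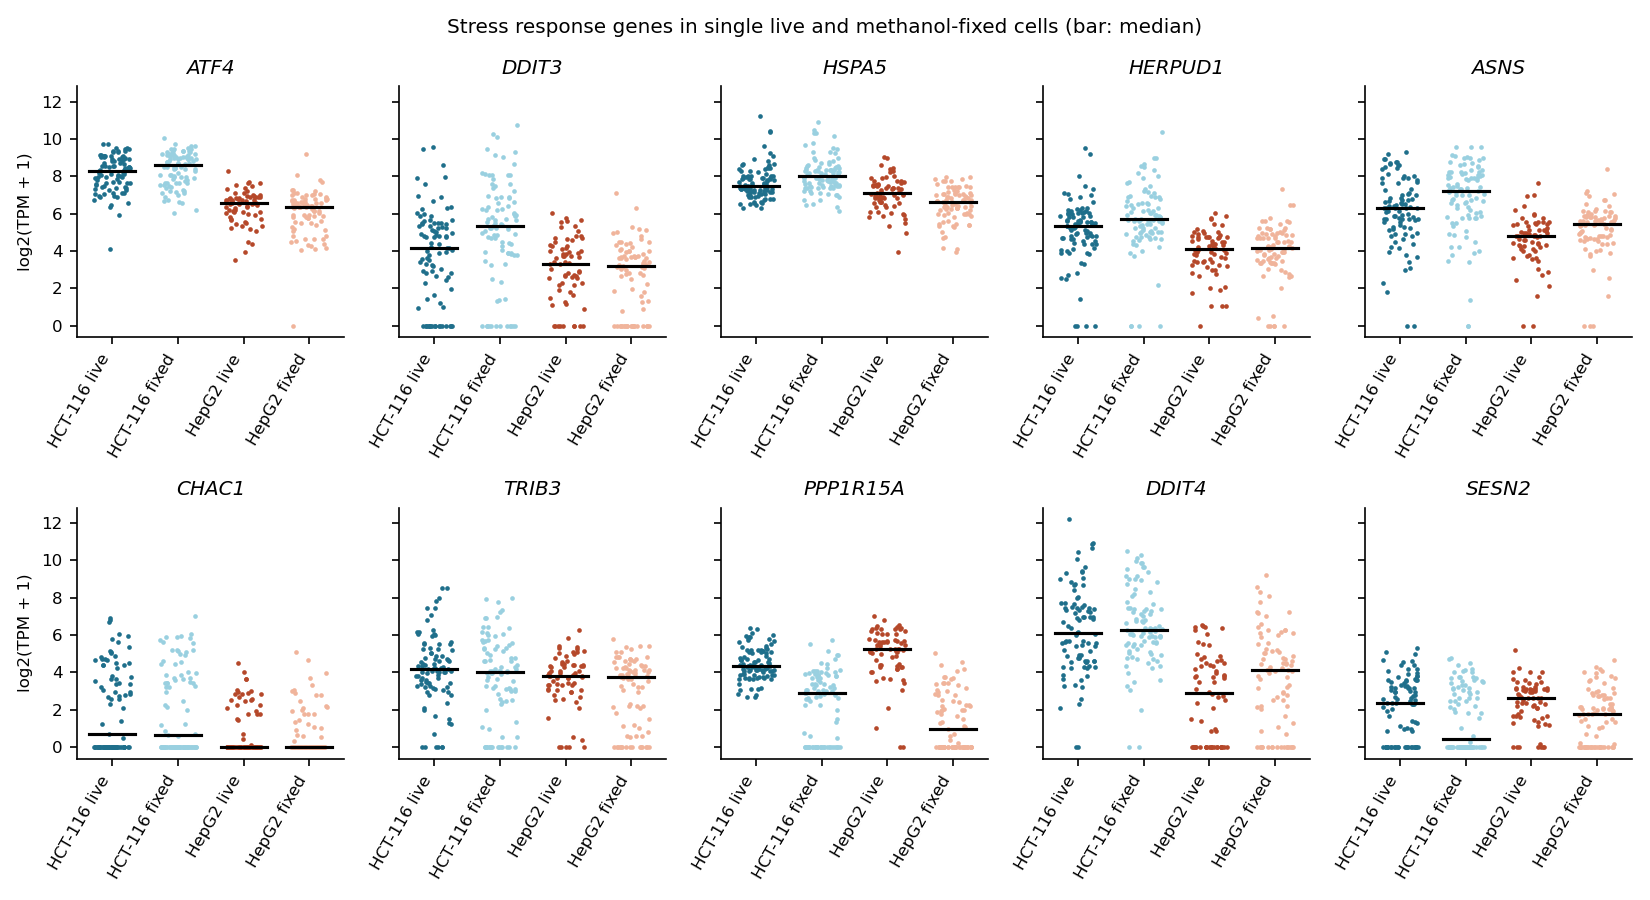
Log2(TPM + 1) of the 10 genes in single cells, 1 panel a gene, with a point for each cell of the 4 groups (91 live and 92 fixed HCT-116 cells, 68 live and 83 fixed HepG2 cells) and a black bar at the median. For PPP1R15A, 84 of 92 fixed HCT-116 cells and all 83 fixed HepG2 cells lie below the live median of their line.

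**Figure D3:**
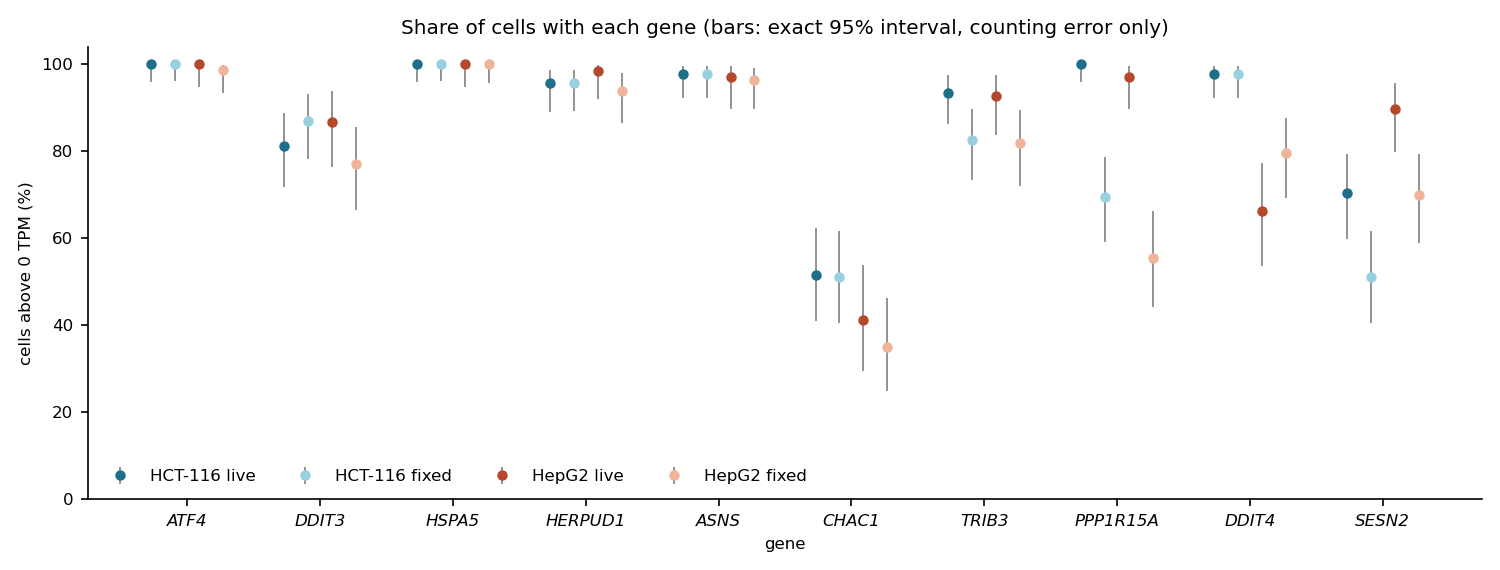
Share of cells above 0 TPM (%) for each gene in the 4 groups, with exact 95% intervals (counting error only). ATF4, HSPA5, HERPUD1 and ASNS were found in over 93% of the cells of each group, and PPP1R15A, TRIB3 and SESN2 in fewer fixed than live cells of both lines. Fixed cells of both lines also had fewer genes above 0 TPM in general.

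The members differ in base composition, and their ratios can be set beside it. GC content of the reference transcript was 42.7% for ASNS, 46.1% for HSPA5, 47.1% for HERPUD1, 50.5% for DDIT3 and 53.2% for ATF4. It was 58.03% for DDIT4, 59.02% for PPP1R15A, 59.6% for SESN2, 61.3% for CHAC1 and 61.5% for TRIB3, which put these 5 genes in the GC-richest of 5 like-sized groups of genes in both lines. Over all genes of that group the fixed to live log2 ratio had a median of -0.49 (HCT-116) and -0.25 (HepG2), and 27.6% and 23.3% of them were lower by 2-fold or more. Against that group, PPP1R15A stood 1.15 lower on the log2 scale in HCT-116 (-1.15; 10.9% of the group had a lower ratio) and 3.24 lower in HepG2 (-3.24; 0.741%). The ratios of SESN2, TRIB3 and CHAC1 were within 0.42 of the median of the group in both lines. DDIT3 in HCT-116 and DDIT4 in HepG2 were above 98.9% of the genes of their own GC groups. The part of base composition in these ratios was not tested further.

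The lines were compared next. The tables of HCT-116 and HepG2 were quantified separately, and a pair of lines cannot separate tissue of origin from culture, so values are set side by side only. Among live cells, 7 members were lower in HepG2 by 2-fold or more (18.7% of 12481 genes) and 0 were higher (22% of genes). Among fixed cells, 9 were lower (18% of 12232 genes) and 0 were higher (22% of genes). The member farthest apart in live cells was DDIT4, 15.4-fold lower in HepG2, followed by CHAC1 (5.47-fold), ASNS (4.03-fold), DDIT3 (3.75-fold), ATF4 (3.61-fold), HERPUD1 (3.19-fold) and TRIB3 (2.37-fold). HSPA5 was lower by 1.68-fold. SESN2 was nearly level, with means of 6.68 ± 8.08 TPM in HCT-116 and 6.03 ± 5.58 TPM in HepG2, and its order turned with the scale (a log2 ratio of -0.15, but 0.29 for means of log2(TPM + 1)). The member that differed the other way was PPP1R15A, with 42.6 TPM in live HepG2 against 25.6 TPM in live HCT-116, and in fixed cells this order turned to 3.77 against 8.25 TPM. By the mean of log2(TPM + 1), 5 members were lower in live HepG2 and 7 in fixed HepG2, and none was higher. Of all genes by this measure, 13.7% were lower and 16.1% higher in live HepG2, and 11.6% and 18.2% in fixed HepG2. The median log2 ratio of the members was -1.76 in live and -2.11 in fixed cells, against 0.07 for all genes in each.

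The order of levels within a group was also not the same in each line. By median, live HCT-116 cells ran from ATF4 (313 TPM) through HSPA5 (174.9), ASNS (77.5), DDIT4 (67.3), HERPUD1 (38.9), PPP1R15A (19.6), TRIB3 (16.99), DDIT3 (16.8) and SESN2 (4.15) to CHAC1 (0.621 TPM). Live HepG2 cells ran from HSPA5 (134.4 TPM) through ATF4 (93.9), PPP1R15A (37.7), ASNS (27.2), HERPUD1 (16.1), TRIB3 (13.1), DDIT3 (8.97), DDIT4 (6.47) and SESN2 (5.26) to CHAC1 (0 TPM). TPM is a level per length, so genes can be set in order. Neighbours differed by less than the larger of their SDs over cells, except ATF4 and PPP1R15A in live HepG2 (SDs 51.6 and 28.1 TPM).

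Co-variation over single cells was described with Spearman's coefficient between each pair of members, 45 pairs a group. Coefficients were higher in HCT-116 than in HepG2; the difference was not tested. The median coefficient was 0.26 in live HCT-116 cells and 0.23 in fixed ones, against 0.024 and 0.025 over all pairs of genes. In HepG2 it was 0.081 in live and 0.091 in fixed cells, against 0.059 and 0.042. A coefficient of at least 0.3 was reached by 20 of 45 pairs in live and 18 of 45 in fixed HCT-116 cells (1.77% and 1.465% of all pairs). In HepG2, 5 live and 3 fixed pairs reached it (5.955% and 2.47% of all pairs). With the number of genes per cell regressed out, the medians were 0.25, 0.26, 0.087 and 0.0061 in the same order. Rescaled by the median ratio, they were 0.25, 0.22, 0.045 and 0.036. Cells of an HCT-116 group come from 1 experiment, those of a HepG2 group from experiments that could not be separated, and many values of the low genes are 0.

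**Figure D4:**
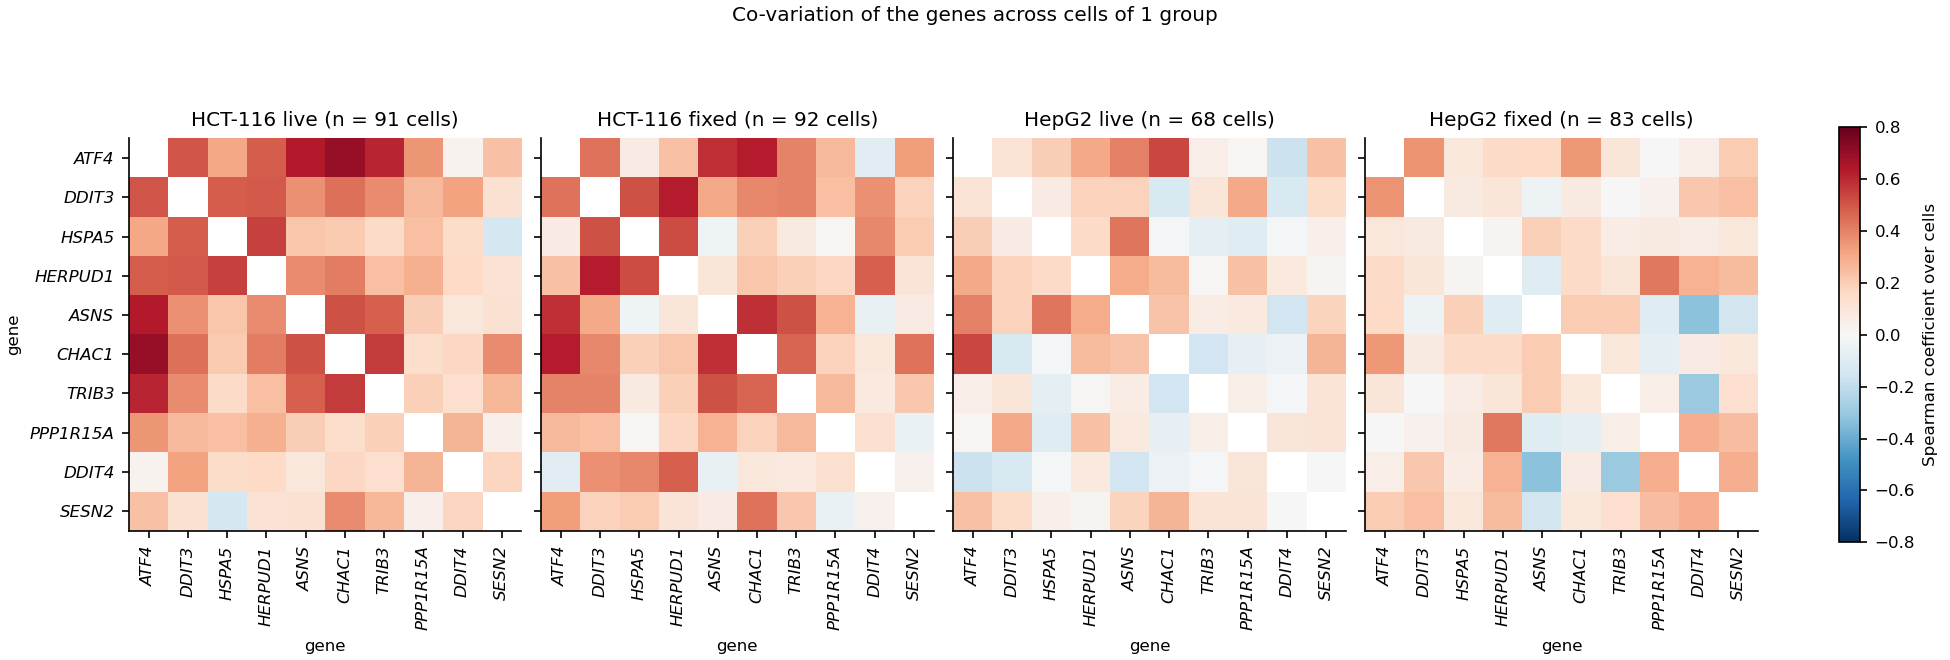
Spearman coefficients over cells for each pair of the 10 genes, 1 panel a group, from blue (negative) to red (positive); the diagonal is blank. Both HCT-116 panels show a dark block of ATF4 with ASNS, CHAC1 and TRIB3 and another of DDIT3, HSPA5 and HERPUD1, with ATF4 as high against DDIT3 (0.50) and HERPUD1 (0.49) in live cells, and both HepG2 panels are paler, with a median of 0.081 in live and 0.091 in fixed cells.

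ATF4 and CHAC1 were the pair with the highest coefficient in live HCT-116 (0.70), and it was 0.63 in fixed HCT-116, 0.53 in live HepG2 and 0.35 in fixed HepG2. ATF4 and ASNS gave 0.63, 0.58, 0.40 and 0.16 in that order, and ATF4 and TRIB3 0.61, 0.40, 0.053 and 0.096. Grouped after these values were seen, the 6 pairs among ATF4, ASNS, CHAC1 and TRIB3 had a median of 0.59 in live HCT-116 cells and 0.54 in fixed ones, and of 0.14 and 0.18 in HepG2. The 3 pairs among DDIT3, HSPA5 and HERPUD1 had a median of 0.49 and 0.52 in HCT-116 and of 0.15 and 0.074 in HepG2. Between the sets, the 12 pairs had a median of 0.37 in live HCT-116 cells and 0.21 in fixed ones. HSPA5 and ASNS gave 0.22 in live HCT-116 cells and -0.032 in fixed ones, and 0.43 and 0.19 in HepG2. After rescaling by the median ratio the HepG2 values of this pair were 0.15 and -0.015, and those of HCT-116 0.18 and -0.060. The order of the lines thus turned in live cells only. Pairs across the sets were about as high as those within the latter in live HCT-116, with 0.50 for ATF4 and DDIT3, the highest coefficient of DDIT3, and 0.49 for ATF4 and HERPUD1. In fixed HCT-116 they were 0.43 and 0.23. Of the elements searched, HERPUD1 held only the one found for ASNS and CHAC1. Its highest coefficients in HCT-116 were with HSPA5 (0.55, live) and DDIT3 (0.63, fixed). Other forms of the ER stress element were not searched for, so the search does not place the promoter of HERPUD1 with either set.

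**Figure D5:**
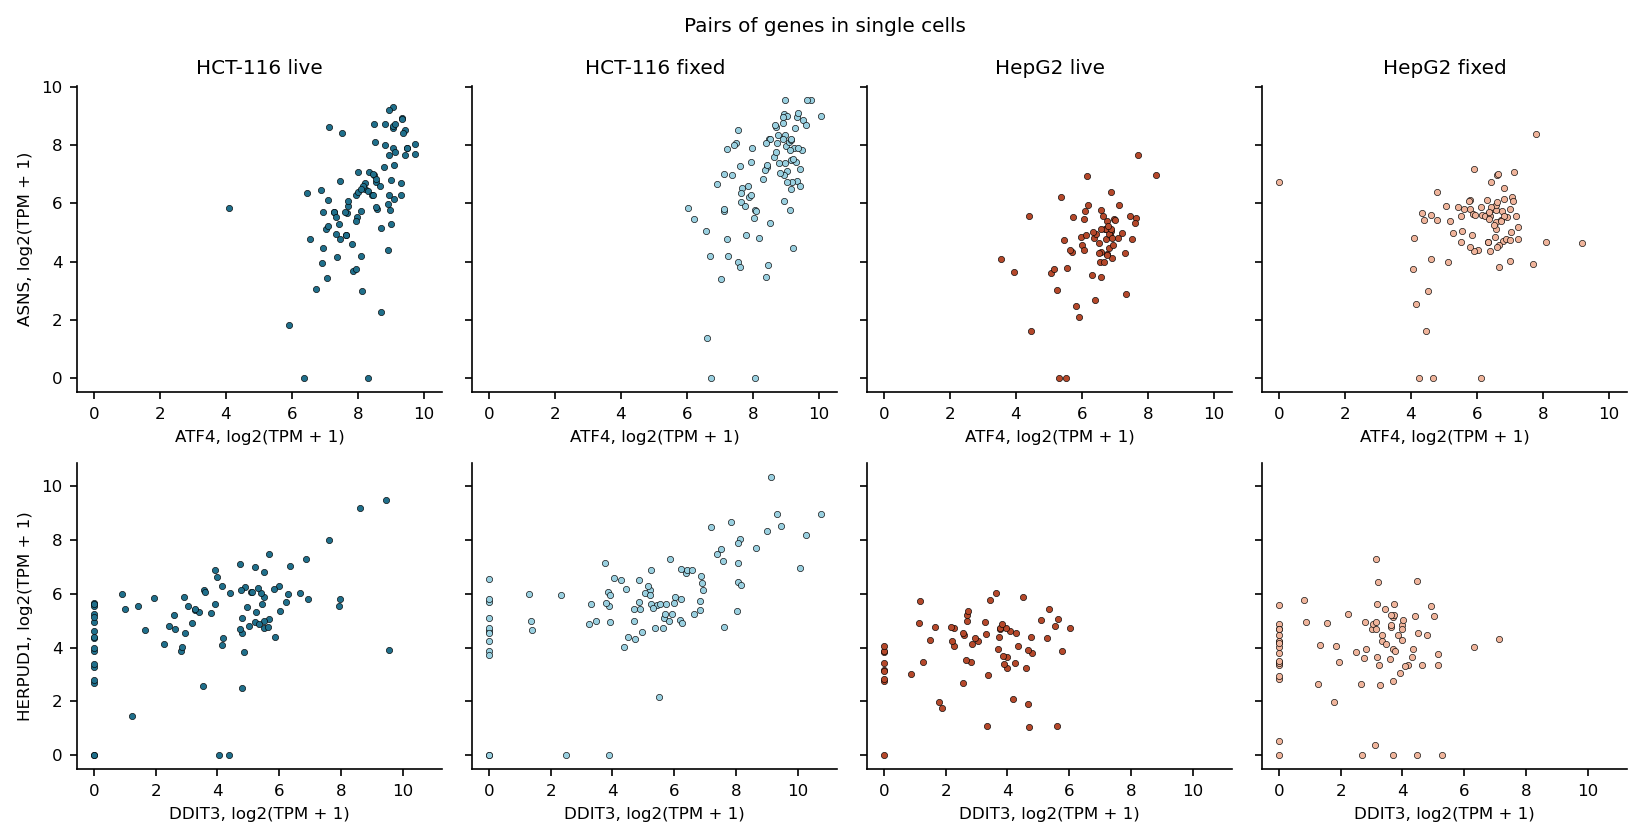
ASNS against ATF4 (top) and HERPUD1 against DDIT3 (bottom) in single cells of the 4 groups, each as log2(TPM + 1). In HCT-116 the points climb together in both pairs (0.63 and 0.58 for ATF4 and ASNS, 0.49 and 0.63 for DDIT3 and HERPUD1), and in fixed HepG2 cells the points show little slope (0.16 and 0.097).

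Splitting HCT-116 cells by CHAC1 restates its coefficients in TPM and is no separate evidence of the sets above. The 47 live cells with CHAC1 had a median of 479 TPM of ATF4, against 199 TPM in the 44 without it. Their median of ASNS was 127.9 against 50.9 TPM, and that of TRIB3 28.5 against 9.91 TPM. Members outside that set were higher too in live cells with CHAC1, DDIT3 at 30.04 against 7.41 TPM, DDIT4 at 120.8 against 49.1 TPM, HERPUD1 at 50.2 against 26.9 TPM and SESN2 at 6.87 against 3.55 TPM. By the ratio of medians the split was thus widest for DDIT3 in live cells. Fixed HCT-116 cells gave 505 against 229 TPM for ATF4 and 241 against 65.2 TPM for ASNS, with DDIT3 at 63.02 against 28.3 TPM. HSPA5 differed less, at 201 against 163.3 TPM in live and 273 against 241 TPM in fixed cells, and so did PPP1R15A, at 19.999 against 17.1 TPM in live and 7.05 against 6.32 TPM in fixed cells. In live HepG2 cells with CHAC1 the medians of ATF4 (114.7 against 69.3 TPM), ASNS, HERPUD1 and SESN2 were higher. Those of DDIT3 (5.48 against 11.6 TPM), TRIB3 (10.3 against 15.4 TPM), DDIT4, HSPA5 and PPP1R15A were lower. HCT-116 cells with CHAC1 had somewhat more genes detected, a median of 12105 against 11773 in live and 11028 against 10207 in fixed cells. The part of this was not tested. The highest 10% of cells were in part shared. Of the 10 cells highest in DDIT3 and the 10 highest in HERPUD1, 5 were the same in live and 7 in fixed HCT-116. Over the 45 pairs of members the count ran from 1 to 7 in live and from 0 to 7 in fixed HCT-116. ASNS and TRIB3 shared 7 in live cells. In live and fixed HepG2, DDIT3 and HERPUD1 shared 1 of 7 and 1 of 9 cells. Pairs of other genes were not set beside these counts. All 10 members were above 0 TPM in 33 of 91 live and 25 of 92 fixed HCT-116 cells, and in 12 of 68 live and 12 of 83 fixed HepG2 cells.

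The genes most like each member were sought among 8945 genes above 0 TPM in at least 50% of the cells of each group, 9 members included (CHAC1 was not), by the mean of the 4 coefficients. ATF4 was most like GARS (0.61) and MARS (0.56), which charge tRNA with glycine and methionine, and MTHFD2 (0.59), an enzyme of mitochondrial folate metabolism. ASNS was most like MARS (0.65), AARS (0.61) and YARS (0.59), all of which charge tRNA. HSPA5 was most like HSP90B1 (0.50), PDIA6 (0.48) and CALR (0.47), which fold proteins in the ER, and its coefficients with HSP90B1 were 0.54 and 0.32 in live and fixed HCT-116 and 0.64 and 0.50 in HepG2.

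For the other members the likeness was weaker. DDIT3 was most like EIF1 and ATF4 (0.35 each) and HERPUD1 (0.35). HERPUD1 was most like DDIT3, HSPA5 (0.31) and CD55 (0.30). TRIB3 was most like SLC3A2 (0.38), a subunit of amino acid transporters, HSPA9 (0.38) and MTHFD2 (0.37). PPP1R15A was most like DUSP1 (0.32), JUNB (0.31) and ZFP36L1 (0.29), which are known as genes of the early response to stimuli. These means hide a spread over the groups. JUNB had 0.089 in live and 0.19 in fixed HCT-116, against 0.51 and 0.44 in HepG2. DUSP1 had 0.17 and 0.36 against 0.57 and 0.20, and ZFP36L1 0.34 and 0.21 against 0.25 and 0.39. DDIT4 was most like RPL13A (0.40), NEAT1 (0.39) and NDRG1 (0.39). SESN2 was most like GDF15 (0.32), MDM2 (0.31) and BTG2 (0.28), of which MDM2 and BTG2 are known targets of p53.

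Other genes of these pathways were taken from 4 lists. Of 44 genes of amino acid uptake, synthesis and tRNA charging linked to ATF4, 37 passed the filter on low values in HCT-116 and 38 in HepG2. Of these, 5 were lower and 1 (SLC7A11) was higher in fixed HCT-116 cells by 2-fold or more, and 7 were lower and 0 higher in fixed HepG2 cells. Lower genes were 13.5% and 18.4% of the list, beside 8.84% and 9.76% of all genes, and higher ones 2.70% and 0%, beside 2.99% and 4.89%. The median log2 ratio of the list was 0.26 in HCT-116 and 0.15 in HepG2, beside 0.17 and 0.15 for all genes. The 4 lower in both lines that were named by rule were SLC6A9, SLC1A5 and SLC7A5, which carry glycine, neutral amino acids and large neutral amino acids, and STC2, a secreted glycoprotein. SLC6A9, SLC1A5 and SLC7A5 lay in the GC-richest group, where 27.6% (HCT-116) and 23.3% (HepG2) of all genes were lower by 2-fold or more. STC2, at 50.1% GC, lay in the middle group, where 2.58% and 4.97% were. The part of base composition was not tested. SLC1A5 had a mean of 103.2 ± 54.2 TPM in live HCT-116 cells and 37.98 ± 24.7 TPM in fixed ones, and of 177.1 ± 90.7 and 56.2 ± 36.3 TPM in HepG2. STC2 was 15.1 ± 28.2 TPM in live HCT-116 cells and 5.03 ± 7.52 TPM in fixed ones, and 39.3 ± 41.1 and 8.03 ± 8.94 TPM in HepG2. Thus ASNS, at 0.57 and 0.55, and the transporter SLC1A5, at -1.44 and -1.66, lay on opposite sides of the median of all genes in both lines. Their GC content differed too, at 42.7% against 61.3%. Across cells ATF4 had a median coefficient with the list of 0.51 in live and 0.42 in fixed HCT-116 and of 0.35 and 0.20 in HepG2. Its medians over all genes were 0.067, 0.070, 0.12 and 0.093 in that order. In live cells, 15 of 38 genes of the list were lower in HepG2 than in HCT-116 by 2-fold or more and 2 were higher (ATF5 and STC2). In fixed cells, 18 of 37 were lower and 1 (ATF5) was higher. Lower genes were 39.5% of the list in live and 48.6% in fixed cells, beside 18.7% and 18% of all genes.

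Of 35 genes of ER folding and degradation, 34 passed the filter in HCT-116 and 33 in HepG2. None was past 2-fold in either direction in fixed HCT-116 cells. In fixed HepG2 cells 1 was lower (OS9, a lectin of ER-associated degradation), with 69.9 ± 27.2 TPM in live cells against 21.2 ± 15.1 TPM. Lower genes were 0% (HCT-116) and 3.03% (HepG2) of the list, beside 8.84% and 9.76% of all genes. Higher ones were 0% of the list in both lines, beside 2.99% and 4.89% of all genes. OS9 was also lower in HCT-116, with a log2 ratio of -0.96, and of -0.93 to -1.28 under the alternatives. The 0 lower genes of the list in HCT-116 became 2 with ribosomal RNA left out (14.8% of all genes were lower) and 3 with log2(TPM + 0.1) (18.4%). The contrast between the lines thus rests on the cut-off. CRELD2 and HYOU1, of ER folding, had log2 ratios of -0.66 and -0.65 in HCT-116 and of -0.72 and -0.60 in HepG2. CRELD2 lay in the GC-richest group (60.7% GC). ERO1A, the oxidase that drives disulfide formation, was higher, with log2 ratios of 0.98 and 0.73. Across cells HSPA5 had a median coefficient with this list of 0.32 in live and 0.21 in fixed HCT-116 and of 0.36 and 0.30 in HepG2. Over all genes its medians in live and fixed cells were 0.0082 and -0.033 for HCT-116, and 0.13 and 0.10 for HepG2, so that the distance to all genes was smaller in HepG2. ASNS against the same list had medians of 0.014 and -0.00040 in HCT-116 and of 0.27 and 0.14 in HepG2. Across lines, 5 of 34 genes of the list were lower in live HepG2 and 2 (OS9 and XBP1) were higher, and in fixed cells 10 were lower and 3 higher. In live cells these are 14.7% and 5.88% of the list, both below the shares of all genes (18.7% and 22%), and in fixed cells 29.4% and 8.82% (18% and 22% of all genes).

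Of 20 stress sensors and initiation factors, 18 passed the filter in HCT-116 and 19 in HepG2, with 0 past 2-fold in HCT-116 and 1 lower in HepG2. That gene was ATF6B, an ER-bound relative of ATF6, with 12.1 ± 7.07 TPM in live HepG2 cells against 5.67 ± 6.92 TPM. Lower genes were 0% (HCT-116) and 5.26% (HepG2) of this list, beside 8.84% and 9.76% of all genes. Higher ones were 0% of it in both lines, beside 2.99% and 4.89% of all genes. EIF2S1, which encodes the subunit of eIF2 that the stress kinases phosphorylate, had log2 ratios of 0.49 and 0.33. EIF2AK4, which encodes GCN2, had 0.31 and 0.65, and the first became -0.01 with ribosomal RNA left out. Of 19 regulators of the TOR kinase, 16 passed in HCT-116 and 15 in HepG2. TSC2, a brake on TOR signalling, was lower in both lines, at log2 ratios of -1.35 and -1.24, and lay in the GC-richest group (60.4% GC). In HCT-116, DDIT4L was lower too, and in HepG2 SESN1 was higher. Lower genes were thus 12.5% (HCT-116) and 6.67% (HepG2) of the TOR regulators and higher ones 0% and 6.67%, to be read beside the same shares of all genes. MTOR itself had log2 ratios of 0.19 and 0.84, and the HCT-116 value became -0.12 with ribosomal RNA left out. Across lines, 1 sensor gene was lower and 1 higher in live HepG2 (19 tested), and 2 and 1 in fixed HepG2. Of the TOR regulators, 3 were lower and 4 higher in live HepG2 (17 tested), and 1 and 4 in fixed HepG2. In live cells the shares of the TOR regulators, 17.6% and 23.5%, were near those of all genes (18.7% and 22%). In fixed cells they were 5.88% and 23.5% (18% and 22% of all genes). The shares of the sensor genes were 5.26% each in live cells and 10.5% and 5.26% in fixed ones, all below those of all genes.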

How the data were processed

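The authors quantified reads with kallisto 0.46.0 on GRCh38 and summed transcripts to genes, and the deposited gene tables, 1 for each line, hold TPM. The deposited transcript tables, named TPM, hold estimated reads as CPM (scaled to all reads of a cell, not divided by length), and served only to recover total reads and for thinning. Of the labelled cells, 4 fixed HCT-116, 1 live HepG2 and 7 fixed HepG2 cells had no column and were not analysed here. Columns were matched to their group only. Members and lists were chosen with earlier results of these data known. Named list genes are the 4 of each list whose log2 ratio had the same sign in both lines and the largest smaller size, and the 3 genes most like each member. Computed here were log2 ratios of mean TPM (filter: 1 TPM on the mean of both groups), shares above 0 TPM with exact (Clopper-Pearson, 95%) intervals, and Spearman coefficients. Alternatives were rescaling by the median ratio over genes in at least 90% of cells, ribosomal RNA left out, means of log2(TPM + 1) or log2(TPM + 0.1), a trimmed mean (5% at each end), cells paired on total reads within 5%, the column listed under both treatments left out, no filter, and detection above 1 or 10 TPM. Leaving out 6 very similar columns was chosen after seeing the data. GC content came from reference transcripts (GENCODE v44), known for 93.6% of HCT-116 and 91.8% of HepG2 genes tested. The computations were tested on simulated data. Python 3.11.15 was used (scipy 1.17.1, numpy 2.4.6, matplotlib 3.10.9, pandas 2.3.3).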

Additional observations from a re-analysis of the deposited data

Results flagged for a closer look

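Of the 10 genes, 4 had log2 ratios of fixed to live cells with opposite signs in HCT-116 and HepG2. Each line is 1 sample a treatment, so these differences were not tested. For DDIT3 the ratio was 1.39 in HCT-116 and -0.18 in HepG2, a difference of 1.57, and the signs were opposite under 6 of 6 alternatives run in both lines. For HSPA5 the ratios were 0.40 and -0.59, a difference of 0.99, also with opposite signs under 6 of 6. For ATF4 they were 0.19 and -0.14, a difference of 0.33, with opposite signs under 5 of 6. For DDIT4 they were -0.33 and 1.44, a difference of -1.77, with opposite signs under 3 of 6.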

How the results depend on the processing

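With means of log2(TPM + 0.1), 2 members were lower in fixed HCT-116 cells and 3 in fixed HepG2 cells by 2-fold or more, in place of 1 each. By this measure 18.4% (HCT-116) and 14.9% (HepG2) of all genes were lower, and the cause was not tested. Of 66 recomputed counts of members, 64 stayed within 1.5 times, and those with no filter could not change, as all 10 members passed it. Counts of list genes are not among these. In fixed HCT-116 cells the 5 lower genes of the ATF4-linked list became 3 with log2(TPM + 1) and 6 with log2(TPM + 0.1). The 0 lower genes of ER folding and degradation became 2 and 3. Of 290 single ratios, 2 moved by more than the SD over cells, those of PPP1R15A to -3.24 and -5.15 with log2(TPM + 0.1). That SD is a spread between cells and not the error of a mean ratio. The count thus says little of how firm a ratio is, and ratios that turned sign could stay within it. Signs of small ratios turned for ATF4 in HCT-116 (-0.12, ribosomal RNA left out), CHAC1 in HCT-116 (0.07, trimmed mean), DDIT4 in HCT-116 (0.05 to 0.21) and HERPUD1 in HepG2 (-0.09, log2(TPM + 0.1)). Of the shares of cells, 31 left their intervals, 25 of them with detection above 10 TPM. Over all genes, 1044 were lower and 353 higher in fixed HCT-116 cells, against 1831 and 207 with ribosomal RNA left out, 2177 and 86 with log2(TPM + 0.1), 20 higher with log2(TPM + 1), 1.78% in place of 2.99% higher with the trimmed mean, and 3823 and 2542 with no filter. In HepG2 the 1219 lower and 611 higher became 1866 lower with log2(TPM + 0.1), 704 lower and 1.10% in place of 4.89% higher with log2(TPM + 1), 394 higher with the median ratio, and 5094 and 2606 with no filter. With 1 sample a group, no replicate could be left out. No paired analysis was possible because live and fixed cells of a line share no number in the labels, the columns could be matched to groups only, and no test was run.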
